A study of Homo sapiens with 6 samples.

Results

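The nuclear-encoded subunits of the respiratory chain and ATP synthase were followed in 2 enzalutamide-resistant prostate cancer cell lines treated with HSP70 inhibitors. Members were the protein-coding genes whose symbol begins with NDUFA, NDUFB, NDUFC, NDUFS, NDUFV, UQCR, COX4 to COX8, ATP5F1, ATP5M or ATP5P, without the NDUFAF assembly factors, together with SDHA, SDHB, SDHC, SDHD and CYC1. This rule gave 90 of the 60658 genes in the deposited tables: 37 of complex I, 4 of complex II, 10 of complex III, 19 of complex IV, 18 of complex V and 2 readthrough genes that join a subunit gene to its neighbour. NDUFA4 and NDUFA4L2 were counted with complex IV.

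The study asked how blocking HSP70, a chaperone that keeps the androgen receptor and its variants folded, changes gene expression in resistant cells. C4-2B MDVR, an enzalutamide-resistant derivative of the androgen-independent LNCaP subline C4-2B, was maintained in medium with 20 µM enzalutamide. CWR22Rv1, a castration-resistant line from a prostate xenograft that carries androgen receptor variants, was maintained without it. Both lines received DMSO vehicle, 10 µM APO (apoptozole) or 10 µM VER (VER155008) for 48 h, and poly-adenylated RNA was sequenced in 1 library per condition. Whether enzalutamide was present during the 48 h is not given in the sources used here, and line and maintenance medium cannot be told apart. The labels of the C4-2B MDVR libraries also call their source LNCaP-C4-2B and their cell type parental, while the titles name C4-2B MDVR.

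Oxidative phosphorylation passes electrons from NADH through complex I, or from succinate through complex II, to ubiquinone, then through complex III, cytochrome c and complex IV to oxygen. The protons pumped on the way drive ATP synthase, complex V, whose F1 head makes ATP while a ring of c subunits turns in the membrane. All complexes but complex II are built from subunits of both the nuclear and the mitochondrial genome, and nuclear-encoded subunits enter the organelle with the help of HSP70-family chaperones.

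Levels are given in FPKM, fragment counts scaled by transcript length and by library size. A difference is the log2 ratio of FPKM + 0.1, and a gene was counted as higher or lower when it was past 1.2-fold. With 1 library per condition no difference has a replicate check, so no p-value is given, and counts are set beside the share of all tested genes past the same fold. A gene was tested where any library of the line exceeded 0.1 FPKM. That held for 84 members in C4-2B MDVR and 83 in CWR22Rv1, and COX4I2, COX6A2, COX6B2, COX7A1, COX8C and ATP5MGL, most of them isoforms known from muscle, lung or testis, were at or under 0.1 FPKM in all 6 libraries. The luminal prostate markers HOXB13, KRT8, KRT18, EPCAM, FOLH1 and SLC45A3 were all present, at 14.0 to 335 FPKM. The basal markers KRT5 and TP63 and the endothelial marker PECAM1 were listed at 0 in every library, and of 7 markers of other cell types COL1A1 was the highest, at 3.32 to 10.8 FPKM.

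The libraries were not of equal depth or composition. Low values placed depth at 1 to 1.63 times that of the C4-2B MDVR DMSO library, and the FPKM of a library summed to between 647172 and 747932. The sum was highest with APO in C4-2B MDVR and lowest with APO in CWR22Rv1. The mitochondrial chromosome held 15.5%, 14.8% and 16.4% of the FPKM under DMSO, APO and VER in C4-2B MDVR, and 25.7%, 10.4% and 25.7% in CWR22Rv1.

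The promoters of members whose levels recur in the results are shown first, from 250 bases before to 50 bases after the RefSeq gene start on GRCh38.p14, 5′ to 3′ on the gene's own strand. COX7A2L (chr2:42361168-42361467, minus strand), NDUFA11 (chr19:5903741-5904040, minus) and NDUFS4 (chr5:53560389-53560688, plus) were higher than DMSO with both inhibitors in both lines. ATP5MC1 (chr17:48892537-48892836, plus) and ATP5MC2 (chr12:53676034-53676333, minus) encode the same mature c subunit but parted under APO. SDHB (chr1:17053983-17054282, minus), UQCRC1 (chr3:48609597-48609896, minus) and UQCRFS1 (chr19:29213102-29213401, minus) were lower with VER in both lines. Capitals mark every match, on either strand, to a motif of a factor known for respiratory genes: NRF1 (GCGCA and GCGC with any base between them), ETS factors such as GABPA (CCGGAAG), YY1 (AANATGGC) and CREB (the CRE, TGACGTCA).
COX7A2L: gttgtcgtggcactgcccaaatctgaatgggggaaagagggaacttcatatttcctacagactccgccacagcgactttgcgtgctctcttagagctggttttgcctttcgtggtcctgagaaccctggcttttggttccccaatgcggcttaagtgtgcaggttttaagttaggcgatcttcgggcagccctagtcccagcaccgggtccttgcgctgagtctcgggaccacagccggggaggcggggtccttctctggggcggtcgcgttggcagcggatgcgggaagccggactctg
NDUFA11: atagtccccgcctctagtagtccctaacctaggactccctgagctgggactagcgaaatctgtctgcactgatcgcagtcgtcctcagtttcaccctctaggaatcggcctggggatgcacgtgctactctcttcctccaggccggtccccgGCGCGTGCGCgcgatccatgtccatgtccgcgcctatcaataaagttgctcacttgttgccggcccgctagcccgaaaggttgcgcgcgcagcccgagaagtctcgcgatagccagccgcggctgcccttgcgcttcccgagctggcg
NDUFS4: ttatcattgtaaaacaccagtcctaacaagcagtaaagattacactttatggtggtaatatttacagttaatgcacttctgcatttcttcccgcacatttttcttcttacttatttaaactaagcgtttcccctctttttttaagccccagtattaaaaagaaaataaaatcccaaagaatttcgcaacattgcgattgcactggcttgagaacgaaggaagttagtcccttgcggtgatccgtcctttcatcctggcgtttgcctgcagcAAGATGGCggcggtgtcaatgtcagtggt
ATP5MC1: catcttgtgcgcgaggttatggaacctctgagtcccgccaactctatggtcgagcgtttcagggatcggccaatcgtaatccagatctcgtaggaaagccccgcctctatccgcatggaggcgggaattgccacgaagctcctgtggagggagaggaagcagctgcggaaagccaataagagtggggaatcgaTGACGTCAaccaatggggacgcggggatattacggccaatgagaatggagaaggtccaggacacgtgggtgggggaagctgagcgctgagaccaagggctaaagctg
ATP5MC2: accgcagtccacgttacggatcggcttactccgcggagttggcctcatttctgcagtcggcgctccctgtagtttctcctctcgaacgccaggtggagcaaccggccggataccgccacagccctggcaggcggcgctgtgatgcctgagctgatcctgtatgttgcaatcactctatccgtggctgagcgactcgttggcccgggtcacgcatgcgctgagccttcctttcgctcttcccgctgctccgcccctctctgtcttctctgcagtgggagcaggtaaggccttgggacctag
SDHB: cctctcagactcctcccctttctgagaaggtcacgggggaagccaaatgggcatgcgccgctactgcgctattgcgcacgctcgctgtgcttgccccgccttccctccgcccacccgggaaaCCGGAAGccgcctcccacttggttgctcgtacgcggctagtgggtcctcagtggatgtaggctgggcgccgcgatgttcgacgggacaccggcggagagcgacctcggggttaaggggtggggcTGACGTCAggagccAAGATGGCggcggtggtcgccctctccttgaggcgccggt
UQCRC1: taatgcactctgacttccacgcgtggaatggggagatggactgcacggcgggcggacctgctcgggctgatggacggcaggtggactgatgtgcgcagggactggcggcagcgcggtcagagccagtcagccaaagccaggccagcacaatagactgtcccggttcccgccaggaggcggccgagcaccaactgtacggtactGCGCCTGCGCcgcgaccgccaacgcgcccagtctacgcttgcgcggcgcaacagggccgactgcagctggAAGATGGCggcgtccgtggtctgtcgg
UQCRFS1: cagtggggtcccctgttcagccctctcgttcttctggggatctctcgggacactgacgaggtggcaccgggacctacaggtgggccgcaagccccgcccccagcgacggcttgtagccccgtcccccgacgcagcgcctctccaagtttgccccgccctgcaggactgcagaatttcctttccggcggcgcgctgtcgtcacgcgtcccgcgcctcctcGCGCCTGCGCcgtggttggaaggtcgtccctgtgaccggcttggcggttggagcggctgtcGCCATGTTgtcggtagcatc

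The COX7A2L and ATP5MC2 windows held none of the 4 motifs in these exact letters. SDHB held an ETS, a CRE and a YY1 match, and UQCRC1 and UQCRFS1 each held an NRF1 and a YY1 match. Of the 90 members, 70 had an entry in the RefSeq promoter table, ATP5MD and ATP5MPL under later symbols. Among the 20 others were ATP5F1B, ATP5F1D, ATP5MC3, ATP5MF, ATP5MF-PTCD1, ATP5MGL, COX4I2, COX6C, COX7A1, CYC1, NDUFA4, NDUFA4L2, NDUFB5, NDUFB9, NDUFC2, NDUFS5, SDHC, UQCRB and UQCRHL. A YY1 match was found in 22 of the 70 members (31.4%) against 6.82% of 27305 promoters, an ETS match in 20 (28.6% against 10.7%), an NRF1 match in 17 (24.3% against 6.28%) and a CRE match in 5 (7.14% against 1.98%). At least 1 of the 4 motifs was present in 46 members, 65.7% against 22.2% of all promoters. In no member did an ETS and a YY1 match share bases. Of the 22 YY1 matches, 16 began at or after the gene start, and its letters include ATG. The members' windows were also richer in G and C, with a median of 61.2% against 58.3%. A match is a description of these letters and not a binding site.

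Counts over all members differed by inhibitor and by line. With APO in C4-2B MDVR, 32 of the 84 tested members were higher (38.1%, against 37.7% of all tested genes) and 7 lower (8.33% against 35.4%), with a median log2 fold change of 0.15 against 0.00 for all genes tested. The higher count was near the background and the lower count was under it. With APO in CWR22Rv1, 10 of 83 were higher (12.05% against 35.6%) and 31 lower (37.3% against 39.2%), with a median of -0.17 against -0.01. There the lower count was near the background and the higher count was under it.

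These APO counts moved with the scaling. With every library set to the same sum of FPKM, as in TPM, 19 members were higher and 15 lower in C4-2B MDVR, with a median of -0.0042, where 32.1% of all tested genes were higher and 42.3% lower. In CWR22Rv1, 17 were higher and 27 lower under TPM, with a median of -0.055, where 40.3% of all tested genes were higher and 35.5% lower. Setting equal sums outside the mitochondrial chromosome gave 19 higher and 16 lower in C4-2B MDVR (31.7% and 42.9% of all tested genes), and 5 higher and 45 lower in CWR22Rv1 (30.3% and 45.3%). The equal-sum scaling shifted the median of genes above 1 FPKM to -0.12 in C4-2B MDVR and 0.10 in CWR22Rv1. Against the median of those genes, the members lay higher with APO in C4-2B MDVR both as deposited (0.15 against 0.02) and under TPM (-0.0042 against -0.12), and lower in CWR22Rv1 (-0.17 against -0.01 and -0.055 against 0.10). Of protein-coding genes averaging 50 FPKM or more, a range in which most members lie, 40.3% were higher and 25.5% lower with APO in C4-2B MDVR. The median of these genes there was 0.13 as deposited, near the 0.15 of the members. In CWR22Rv1 their median was 0.02, against -0.17 for the members.

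VER gave more stable counts. In C4-2B MDVR, 10 members were higher (11.9% against 35.6%) and 25 lower (29.8% against 34.9%), with a median of -0.08 against 0.00. In CWR22Rv1, 10 were higher (12.05% against 32.1%) and 27 lower (32.5% against 32.3%), with a median of -0.14 against -0.00. Both lower counts were near or under the share of all tested genes, and the lower count ranged over the 3 other scalings from 24 to 25 in C4-2B MDVR and from 24 to 31 in CWR22Rv1. Of protein-coding genes averaging 50 FPKM or more, 30.7% were higher and 32.1% lower with VER in C4-2B MDVR. In CWR22Rv1 these shares were 28.2% and 26.5%, so the members' lower share there was above that of this group. In no inhibitor comparison did 8 tested members, among them UQCRH, UQCRB, SDHC and ATP5MG, pass 1.2-fold. The share of all tested genes that passed in none was not counted.

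**Figure D1:**
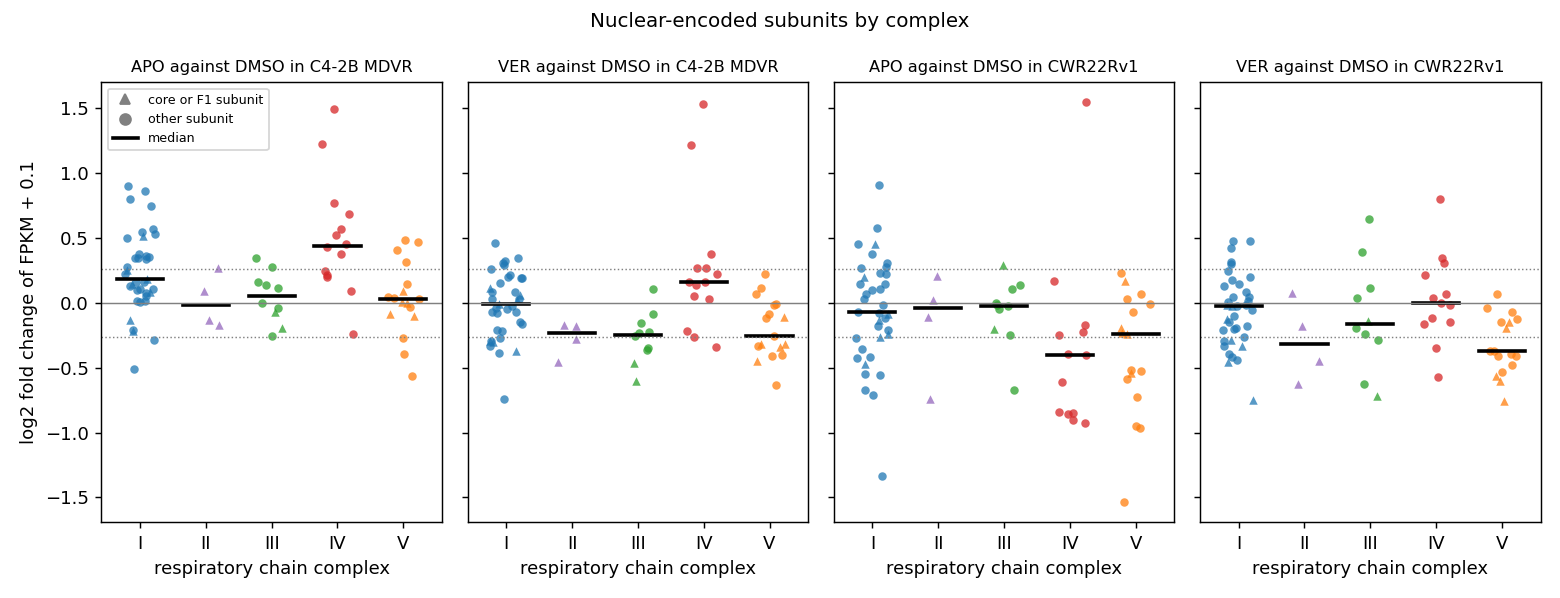
Log2 fold change of FPKM + 0.1 (vertical axis) of each tested subunit gene by complex (horizontal axis), in 1 panel per inhibitor and line. Triangles are core or F1 subunits, circles other subunits, thick bars medians and dotted lines 1.2-fold; the complex IV median lies at 0.44 with APO in C4-2B MDVR and at -0.40 with APO in CWR22Rv1, and the 2 readthrough genes are left out.

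Of the complexes, complex IV, cytochrome c oxidase, had the widest gap between the lines under APO. In C4-2B MDVR, 9 of its 14 tested members were higher (64.3%, against 37.7% of all tested genes) and 0 lower (against 35.4%) with APO, with a median of 0.44. In CWR22Rv1, 1 of 13 was higher (7.69% against 35.6%) and 8 were lower (61.5% against 39.2%), with a median of -0.40. Both directions held under each scaling, with medians of 0.28 to 0.42 in C4-2B MDVR and of -0.56 to -0.29 in CWR22Rv1. VER gave a median of 0.16 in C4-2B MDVR (5 higher, 35.7% against 35.6%, and 1 lower, 7.14% against 34.9%). In CWR22Rv1 it gave a median of 0.00, or -0.06 under TPM (3 higher, 23.1% against 32.1%, and 2 lower, 15.4% against 32.3%).

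COX7A2L (ENSG00000115944, chr2:42333546-42425088 in GENCODE 29 on GRCh38), a COX7A-related protein known for joining complexes III and IV into supercomplexes, stood apart. Its level in C4-2B MDVR was 71.2, 201 and 166 FPKM under DMSO, APO and VER. In CWR22Rv1 it was 48.1, 141 and 84.1 FPKM in the same order. Both inhibitor libraries lay above DMSO in each line, with log2 fold changes of 1.49 for APO and 1.22 for VER in C4-2B MDVR, and 1.55 and 0.80 in CWR22Rv1. Within a line the APO and VER comparisons share the DMSO library, so the 2 values of a line are not independent.

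COX7A2, the COX7A isoform of most tissues, differed in direction from COX7A2L with APO in CWR22Rv1 alone. It measured 163, 224 and 197 FPKM under DMSO, APO and VER in C4-2B MDVR. In CWR22Rv1 it measured 428, 237 and 529.9 FPKM, a fall of 0.85 on the log2 scale with APO against a gain of 0.31 with VER (0.24 under TPM). COX7A2L therefore made up 30.4%, 47.3% and 45.7% of the summed COX7A level with DMSO, APO and VER in C4-2B MDVR. In CWR22Rv1 its share was 10.1%, 37.3% and 13.7%. The muscle isoform COX7A1 was listed at 0 throughout.

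Among the larger complex IV subunits, COX4I1, the regulatory subunit that binds ATP, was at 599.6, 862 and 671 FPKM under DMSO, APO and VER in C4-2B MDVR. Its level in CWR22Rv1 was 772, 869 and 898 FPKM, so only APO in C4-2B MDVR passed 1.2-fold (0.52). COX5B, a zinc-binding subunit, was at 241, 388 and 291 FPKM under DMSO, APO and VER in C4-2B MDVR and 411, 365 and 429.9 FPKM in CWR22Rv1, higher with APO and VER in the first line (0.69 and 0.27) and under 1.2-fold in the second. COX5A, which faces the matrix beside it, measured 234, 249 and 185 FPKM under DMSO, APO and VER in C4-2B MDVR and 239, 205 and 214 FPKM in CWR22Rv1, with VER in C4-2B MDVR the lowest value and the only one past 1.2-fold (-0.34). The 3 did not move as a block.

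COX6A1 was the most abundant nuclear-encoded complex IV transcript, although 20.6% of its 150-base words are shared with other genes. It reached 831, 1420.1 and 1076 FPKM under DMSO, APO and VER in C4-2B MDVR. The CWR22Rv1 libraries held 1549.8, 1304 and 1974 FPKM, and VER was higher in both lines (0.37 and 0.35). COX6B1, which links oxidase monomers into a dimer, was lower with APO in CWR22Rv1 (from 312 to 174 FPKM, -0.84). COX7B, COX7C and COX8A, small membrane subunits, were lower with APO in CWR22Rv1 too, at -0.93, -0.40 and -0.61. In C4-2B MDVR their APO values were 0.21, 0.20 and 0.38, of which COX8A alone passed 1.2-fold (0.23 under TPM).

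**Figure D2:**
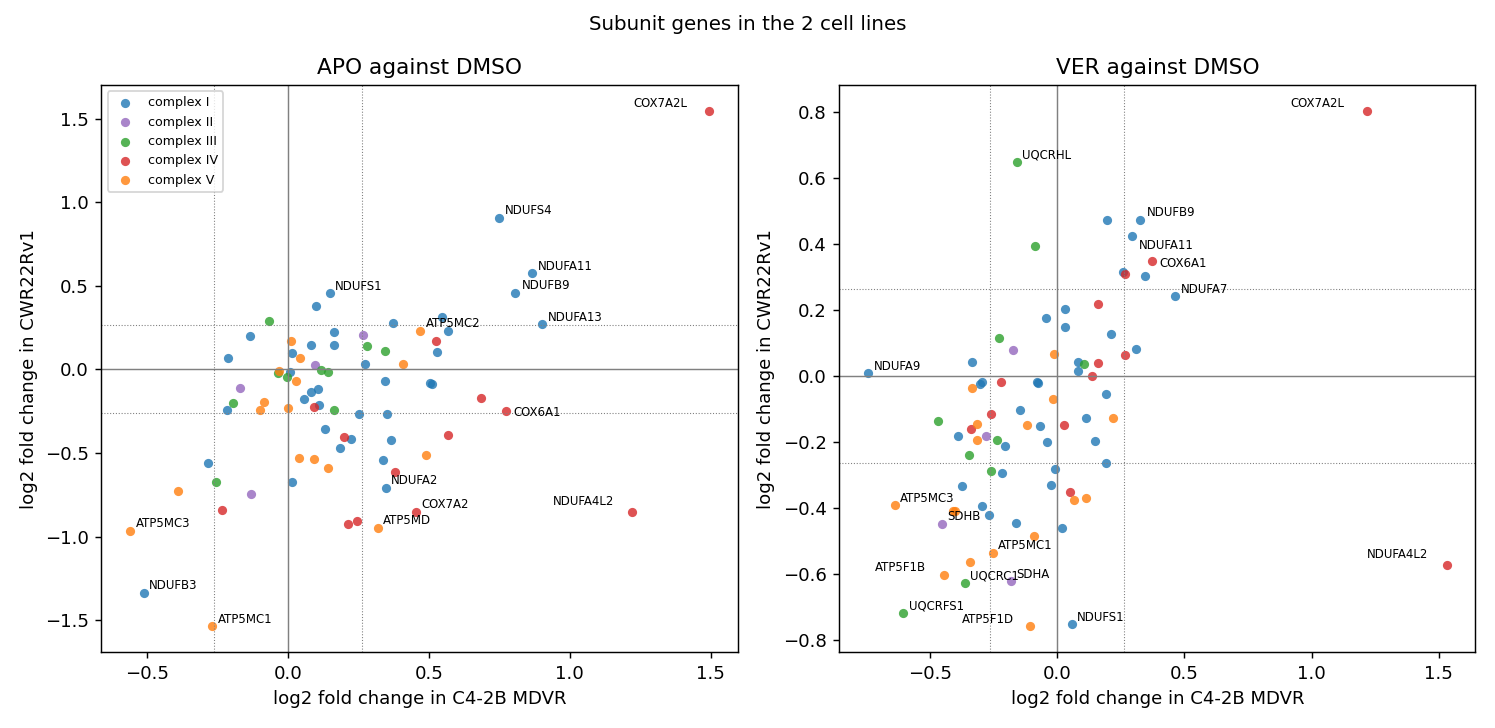
Log2 fold change in CWR22Rv1 (vertical axis) against that in C4-2B MDVR (horizontal axis) for each subunit gene tested in both, APO on the left and VER on the right, with dotted lines at 1.2-fold and colours for complexes. COX7A2L lies at the upper right in both panels, and NDUFA4L2 lies at the lower right in both, higher in C4-2B MDVR and lower in CWR22Rv1.

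NDUFA4, long listed with complex I and now known as an oxidase subunit, was at 91.2, 108 and 100.3 FPKM under DMSO, APO and VER in C4-2B MDVR. CWR22Rv1 had 185, 98.9 and 185 FPKM, lower with APO by a log2 value of -0.90. NDUFA4L2 (chr12:57234903-57240715), a paralog known as a hypoxia-induced gene, was low in C4-2B MDVR, at 1.71, 4.12 and 5.12 FPKM under DMSO, APO and VER. Levels in CWR22Rv1 were 32.1, 17.7 and 21.5 FPKM. Both inhibitors were above DMSO in the first line (1.22 and 1.53) and below it in the second (-0.86 and -0.57), while every CWR22Rv1 library stayed above every C4-2B MDVR library. The gene overlaps SHMT2 on the other strand.

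COX7B2 (chr4:46734827-46909235), an isoform known from testis, separated the lines. It was at 18.2, 24.5 and 21.2 FPKM under DMSO, APO and VER in C4-2B MDVR and was listed at 0 in all 3 CWR22Rv1 libraries. In C4-2B MDVR it made up 30.7%, 34.0% and 37.5% of the summed COX7B level with DMSO, APO and VER.

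Of complex I, NDUFS4, NDUFA11 and NDUFB9 were past 1.2-fold higher with each inhibitor in each line, where APO and VER again share their DMSO library. NDUFS4 (chr5:53560633-53683340), an accessory subunit near the NADH-oxidising tip of the peripheral arm, was at 59.6, 100.3 and 75.8 FPKM under DMSO, APO and VER in C4-2B MDVR. Its CWR22Rv1 levels were 85.4, 160.0 and 105 FPKM, and the APO differences were 0.75 and 0.91, the VER differences 0.35 and 0.30. The APO library was the highest of each line. NDUFA11 (chr19:5891276-5904006), a membrane-arm accessory subunit, measured 195, 355 and 239 FPKM under DMSO, APO and VER in C4-2B MDVR and 215, 321 and 289 FPKM in CWR22Rv1. Its differences were 0.87 and 0.29 in the first line and 0.58 and 0.42 in the second. NDUFA11 shares part of its sequence with an overlapping gene on the same strand, AC024592.3.

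NDUFB9 (chr8:124539101-124580648), an accessory subunit of the LYR-motif family in the membrane arm, was at 343, 599 and 429 FPKM under DMSO, APO and VER in C4-2B MDVR. Its CWR22Rv1 levels were 299, 409.9 and 415 FPKM, with APO and VER nearly level. The log2 fold changes were 0.80 and 0.33, then 0.46 and 0.48. NDUFA13, also called GRIM-19, was at 126, 235 and 151 FPKM under DMSO, APO and VER in C4-2B MDVR and 206, 248 and 256 FPKM in CWR22Rv1, and 34.3% of its 150-base words are shared with the overlapping gene AC011448.1. Its APO values were 0.90 and 0.27, the second of which fell under 1.2-fold in the scalings on the median ratio and on sums outside the mitochondrial chromosome. With VER in CWR22Rv1, the call of NDUFS4 was lost under the TPM scaling and under the scaling outside the mitochondrial chromosome, where both values were 0.24.

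As a group, complex I had a median of 0.19 with APO in C4-2B MDVR, with 16 of 37 higher (43.2%, near the 37.7% of all tested genes) and 2 lower (5.41% against 35.4%). With VER the median there was -0.01, with 5 higher (13.5% against 35.6%) and 8 lower (21.6% against 34.9%). In CWR22Rv1 the APO median was -0.07, with 8 higher (21.6% against 35.6%) and 11 lower (29.7% against 39.2%). The VER median was -0.02, with 5 higher (13.5% against 32.1%) and 9 lower (24.3% against 32.3%). The APO median in C4-2B MDVR was 0.04 under the TPM scaling, the VER median there was 0.01 with equal sums outside the mitochondrial chromosome, and in CWR22Rv1 the APO median became 0.05 under TPM and the VER median 0.01 with a median ratio of 1. Of the 30 accessory subunits, 15 were higher with APO in C4-2B MDVR (50% against 37.7%) and 2 lower (6.67% against 35.4%). Of the 11 NDUFB genes, 7 were higher there (63.6%) and 2 lower (18.2%). These groups were not recounted under the other scalings. Of all 32 members higher with APO in C4-2B MDVR, 19 kept that call under every other pseudocount and scaling.

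The 7 nuclear core subunits of complex I, among which are the flavin and iron-sulfur proteins, moved less with APO in C4-2B MDVR, with NDUFS8 alone past 1.2-fold (0.51). NDUFS1, the largest of them, was at 41.1, 45.5 and 42.8 FPKM under DMSO, APO and VER in C4-2B MDVR. The CWR22Rv1 libraries held 57.4, 78.6 and 34.03 FPKM, the APO library above DMSO (0.45) and the VER library below it (-0.75).

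NDUFV1, which binds NADH and the flavin, was at 82.4, 93.7 and 83.6 FPKM under DMSO, APO and VER in C4-2B MDVR. It was at 155, 112 and 113 FPKM in CWR22Rv1, with both inhibitors below DMSO by similar amounts (-0.47 and -0.46). NDUFV2, its partner, was at 148, 134 and 119.8 FPKM under DMSO, APO and VER in C4-2B MDVR and 133, 152 and 131 FPKM in CWR22Rv1, lower with VER in C4-2B MDVR only (-0.30), and 70.7% of its 150-base words occur in another gene. NDUFS3 and NDUFS7 belong to the module that meets the membrane. NDUFS3 was at 79.95, 84.5 and 65.2 FPKM under DMSO, APO and VER in C4-2B MDVR and 92.00, 83.8 and 90.9 FPKM in CWR22Rv1. Only VER in C4-2B MDVR was past 1.2-fold (-0.29). NDUFS7 was at 78.6, 93.7 and 78.1 FPKM under DMSO, APO and VER in C4-2B MDVR and 121, 100.9 and 99.8 FPKM in CWR22Rv1. In CWR22Rv1 both inhibitors were just past 1.2-fold lower (-0.27 and -0.28), APO not so under TPM (-0.15) and VER not so with a median ratio of 1 (-0.25).

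Of the accessory subunits that were lower, NDUFB3 was at 67.5, 47.3 and 64.4 FPKM under DMSO, APO and VER in C4-2B MDVR. It was at 72.2, 28.5 and 65.01 FPKM in CWR22Rv1, so that APO was the lowest library of each line (-0.51 and -1.34) and VER was near DMSO. NDUFA9, which stabilises the joint of the arms, was lower with VER in C4-2B MDVR, with levels of 108, 121 and 64.6 FPKM under DMSO, APO and VER. In CWR22Rv1 it stayed between 104 and 116 FPKM. NDUFA7 was the accessory subunit that gained most with VER in C4-2B MDVR (0.47, from 92.6 to 128 FPKM), but 67.9% of its 150-base words are shared with another gene.

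**Figure D3:**
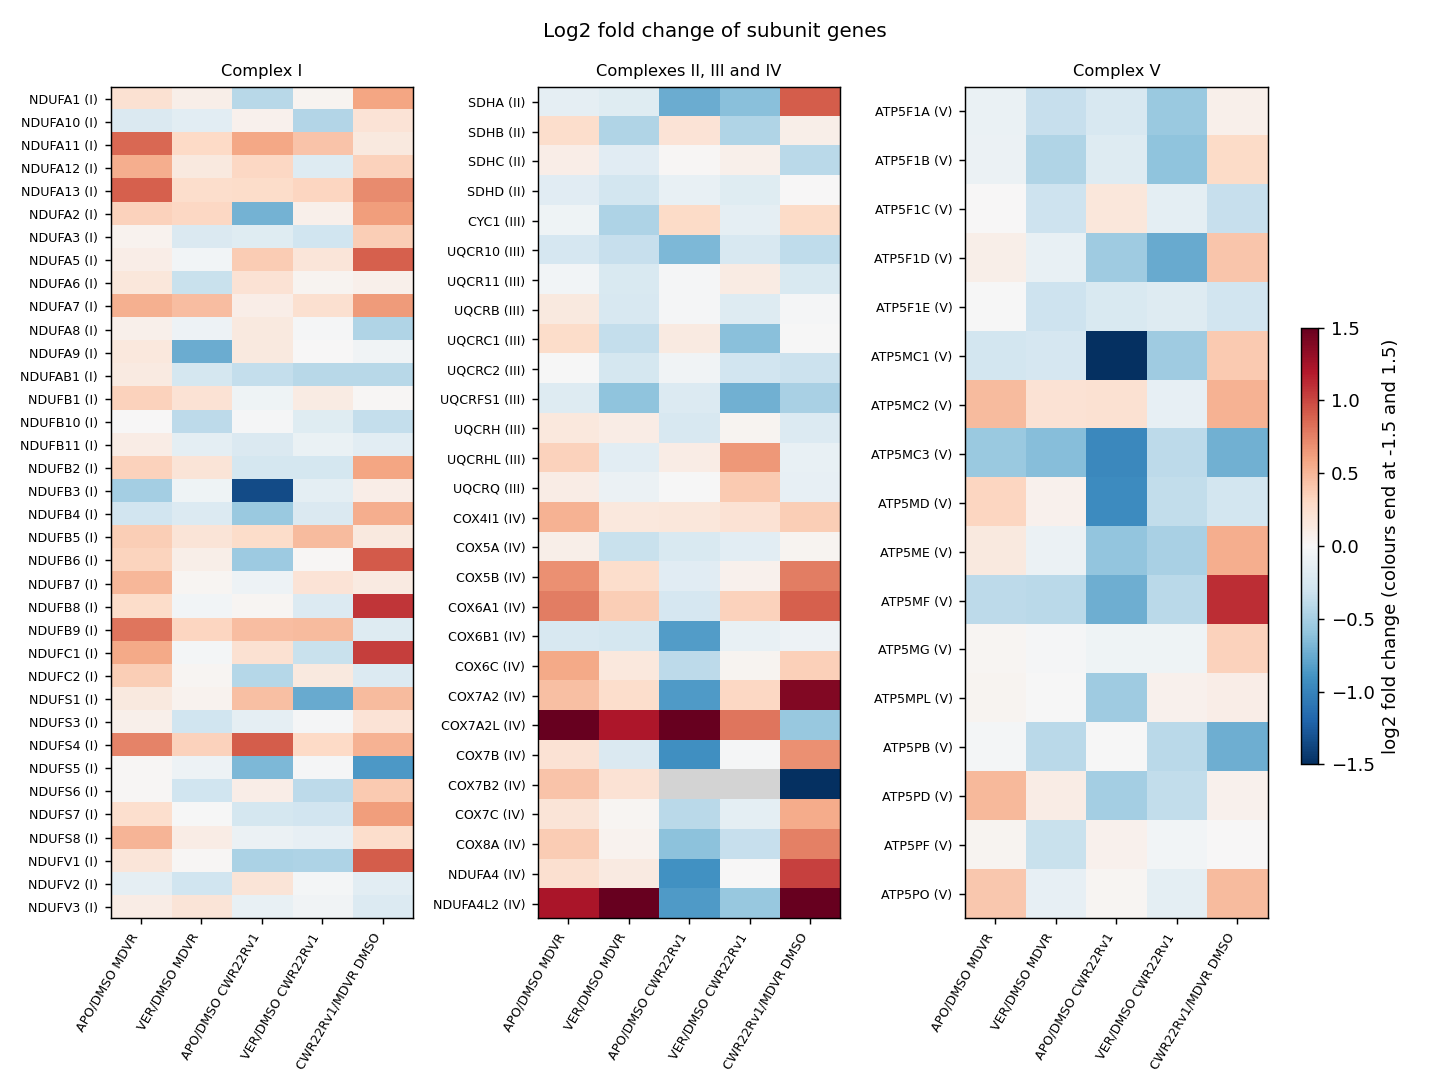
Log2 fold change of tested subunit genes (rows, with the complex in brackets) in the 4 inhibitor comparisons and in CWR22Rv1 against C4-2B MDVR under DMSO (columns), red for higher and blue for lower, with grey where a gene was not tested. Rows of complex V are mostly blue with VER, and COX7A2L is red in all 4 inhibitor columns.

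Complex II, succinate dehydrogenase, which also serves the citric acid cycle, had median differences with VER of -0.23 in C4-2B MDVR and -0.31 in CWR22Rv1, where 2 of its 4 genes were lower in each line (against 34.9% and 32.3% of all tested genes). SDHB (chr1:17018722-17054170), its iron-sulfur subunit, was at 76.5, 92.1 and 55.9 FPKM under DMSO, APO and VER in C4-2B MDVR. CWR22Rv1 had 81.7, 94.1 and 59.9 FPKM, with VER lowest and APO highest in both lines. Against DMSO, VER gave -0.45 and -0.45. SDHA, the flavoprotein that oxidises succinate, was at 51.2, 46.7 and 45.2 FPKM under DMSO, APO and VER in C4-2B MDVR and 95.98, 57.3 and 62.3 FPKM in CWR22Rv1, where both inhibitors were lower (-0.74 and -0.62). Of the membrane anchors, SDHC ranged from 212 to 255 FPKM in C4-2B MDVR and from 180.5 to 191 FPKM in CWR22Rv1, and SDHD from 96.5 to 117 FPKM and from 104 to 118 FPKM. SDHC was under 1.2-fold in all inhibitor comparisons. SDHD was past 1.2-fold lower with VER in C4-2B MDVR alone (-0.28), where SDHA was under it (-0.18).

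Complex III had median differences with VER of -0.25 in C4-2B MDVR and -0.16 in CWR22Rv1. In the first line 0 of 10 were higher (against 35.6% of all tested genes) and 4 lower (40.0% against 34.9%), and in the second 2 were higher (20.0% against 32.1%) and 3 lower (30.0% against 32.3%). Under APO the medians were 0.06 and -0.02, and under TPM they were -0.09 and 0.10. UQCRFS1 (chr19:29205321-29213541), the Rieske iron-sulfur protein, was at 56.04, 48.9 and 36.9 FPKM under DMSO, APO and VER in C4-2B MDVR. Its CWR22Rv1 levels were 40.03, 34.8 and 24.3 FPKM. VER was lowest in each line and was past 1.5-fold lower in both (-0.60 and -0.72). CYC1, the cytochrome c1 that hands electrons to cytochrome c, was at 259, 247 and 188 FPKM under DMSO, APO and VER in C4-2B MDVR. It was at 316, 387 and 287 FPKM in CWR22Rv1. CYC1 was lower with VER in the first line (-0.47) and higher with APO in the second (0.29).

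UQCRC1, a large core protein of the matrix side, was at 197, 239 and 153 FPKM under DMSO, APO and VER in C4-2B MDVR. Levels in CWR22Rv1 were 196, 215 and 127 FPKM, with VER below both other libraries (-0.36 and -0.63). Its partner UQCRC2 was at 177, 176 and 148 FPKM under DMSO, APO and VER in C4-2B MDVR and 142, 137 and 116 FPKM in CWR22Rv1, with VER lowest again and past 1.2-fold in CWR22Rv1 alone (-0.29, or -0.25 with a median ratio of 1). The hinge protein UQCRH was under 1.2-fold throughout, at 369 to 564 FPKM. UQCRHL, an intronless copy, was at 1.47 to 2.44 FPKM, and its value of 0.65 with VER in CWR22Rv1 rests on a level near 2 FPKM.

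In complex V no member was higher with VER in either line. With VER, 0 of 17 members were higher (against 35.6% of all tested genes) and 8 lower (47.1% against 34.9%) in C4-2B MDVR, with a median of -0.25. In CWR22Rv1, 0 were higher (against 32.1%) and 10 lower (58.8% against 32.3%), with a median of -0.37. The medians under the 3 other scalings were -0.25 to -0.24 and -0.44 to -0.34. With APO the median was 0.03 in C4-2B MDVR, or -0.12 under TPM (4 higher, 23.5% against 37.7%, and 3 lower, 17.6% against 35.4%). It was -0.24 in CWR22Rv1 (0 higher, against 35.6%, and 8 lower, 47.1% against 39.2%).

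The catalytic F1 head was lower mainly with VER. ATP5F1B, the catalytic beta subunit, was at 1014, 955 and 744 FPKM under DMSO, APO and VER in C4-2B MDVR. Its CWR22Rv1 levels were 1235, 1078 and 814 FPKM, and VER was lowest in both lines (-0.45 and -0.60). ATP5F1A, the alpha subunit, was at 422, 393 and 333 FPKM under DMSO, APO and VER in C4-2B MDVR and 446, 377 and 302 FPKM in CWR22Rv1, again lowest with VER (-0.34 and -0.56). ATP5F1D, the delta subunit of the central stalk, was at 248, 264 and 231 FPKM under DMSO, APO and VER in C4-2B MDVR and 332, 229 and 196 FPKM in CWR22Rv1, where it had the lowest VER value of all members (-0.76). ATP5F1C and ATP5F1E, the other stalk subunits, were past 1.2-fold with VER in C4-2B MDVR only (-0.32 and -0.31).

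The summed level of the 5 F1 genes was 1890.4 FPKM with DMSO and 1474 with VER in C4-2B MDVR. It was 2177 and 1459 FPKM in CWR22Rv1. With APO the sums were 1820.5 and 1861 FPKM, between the 2 others in each line.

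The 3 ATP5MC genes encode c-ring subunits with different presequences and an identical mature protein. ATP5MC1 (chr17:48892765-48895871) was at 263, 218 and 221 FPKM under DMSO, APO and VER in C4-2B MDVR. The CWR22Rv1 libraries held 346, 119 and 239 FPKM, where APO gave the most negative difference of any member and any inhibitor comparison apart from a readthrough gene (-1.54). ATP5MC3 (chr2:175176258-175184607) was at 413, 280.2 and 266 FPKM under DMSO, APO and VER in C4-2B MDVR and 249.9, 128 and 191 FPKM in CWR22Rv1, below DMSO with both inhibitors in both lines. ATP5MC2 (chr12:53632726-53677408) was at 476, 659 and 554 FPKM under DMSO, APO and VER in C4-2B MDVR and 682, 800.0 and 624 FPKM in CWR22Rv1, highest with APO in each line (0.47 and 0.23, the second under 1.2-fold).

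The makeup of the c-subunit messages thus shifted towards ATP5MC2. Its share of their summed level was 41.3%, 56.9% and 53.3% under DMSO, APO and VER in C4-2B MDVR. In CWR22Rv1 the shares were 53.4%, 76.4% and 59.2%. The sum itself was 1152, 1157 and 1041 FPKM in C4-2B MDVR, and 1277, 1047 and 1053 FPKM in CWR22Rv1. A share within 1 library does not depend on scaling.

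**Figure D4:**
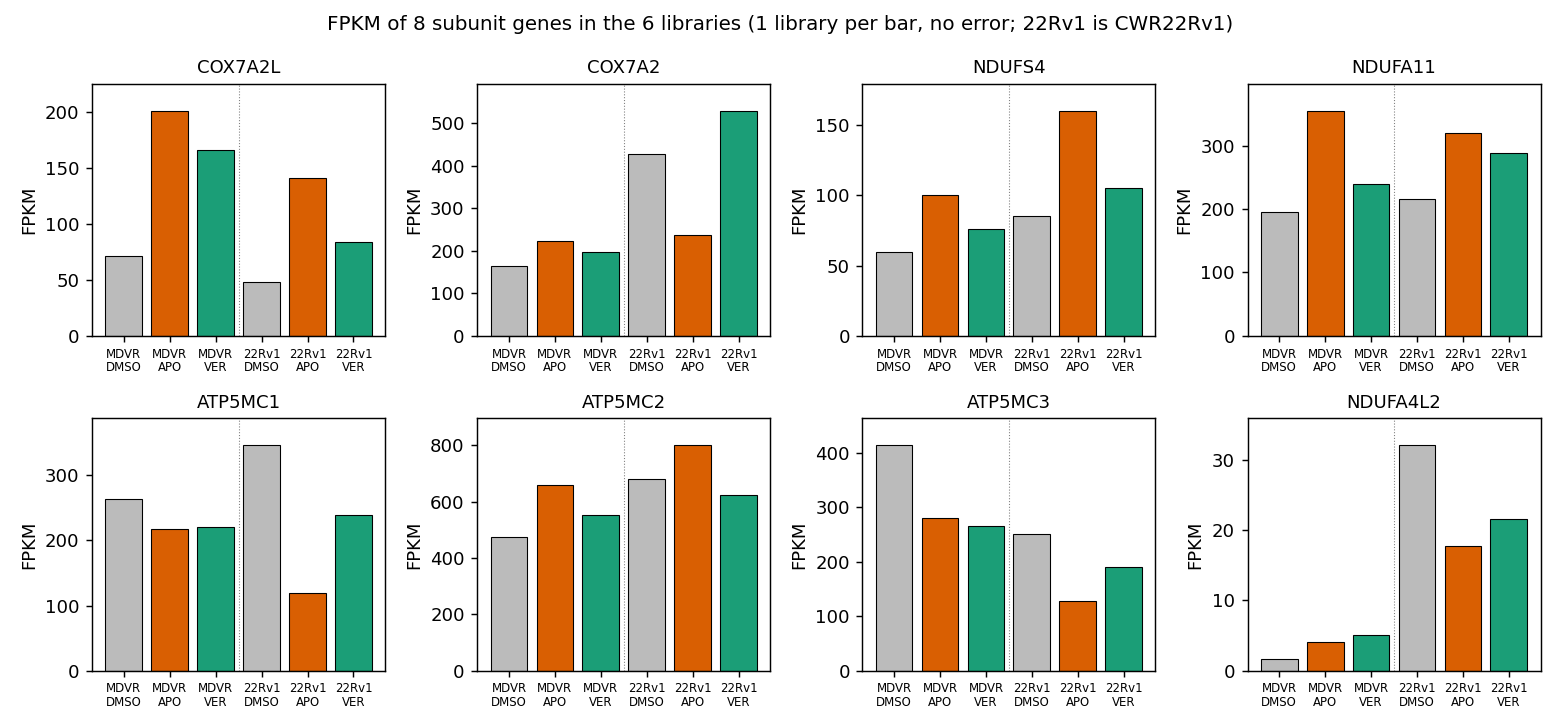
FPKM (vertical axis, from 0) of 8 subunit genes in the 6 libraries (horizontal axis), 1 library per bar and no error, with C4-2B MDVR left and CWR22Rv1 right of the dotted line and DMSO in grey, APO in orange and VER in green. COX7A2L goes from 71.2 to 201 FPKM with APO in C4-2B MDVR, and ATP5MC1 from 346 to 119 FPKM with APO in CWR22Rv1 while ATP5MC2 is at 682 and 800.0.

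ATP5MF (chr7:99448475-99466331), the f subunit of the membrane part, was at 682, 519 and 514 FPKM under DMSO, APO and VER in C4-2B MDVR. Its CWR22Rv1 levels were 1463, 882 and 1101 FPKM, so that DMSO was highest in each line. The differences were -0.39 and -0.41, then -0.73 and -0.41. The readthrough gene ATP5MF-PTCD1, which overlaps it on the same strand, was at 9.61, 7.08 and 6.01 FPKM under DMSO, APO and VER in C4-2B MDVR and 7.51, 6.21 and 5.83 FPKM in CWR22Rv1. Its DMSO level was also the highest of each line, but 93.9% of its 150-base words are shared with PTCD1. The other readthrough gene, NDUFC2-KCTD14, was at 22.7, 9.64 and 0.000467 FPKM under DMSO, APO and VER in C4-2B MDVR and 9.51, 6.01 and 8.74 FPKM in CWR22Rv1. NDUFC2 itself was at 190.1 FPKM in the library with VER in C4-2B MDVR. How fragments of such pairs were divided between the genes was not tested.

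The peripheral stalk subunit ATP5PB was at 356, 348 and 269.7 FPKM under DMSO, APO and VER in C4-2B MDVR. CWR22Rv1 had 214, 213 and 162 FPKM, APO near DMSO and VER lower in both lines (-0.40 and -0.41). ATP5PD, another stalk subunit, was at 238, 333 and 257 FPKM under DMSO, APO and VER in C4-2B MDVR and 249, 174 and 192 FPKM in CWR22Rv1, higher with APO in the first (0.49) and lower with both inhibitors in the second (-0.52 and -0.37). ATP5MD, also called DAPIT, which helps hold ATP synthase dimers together, was at 516, 644 and 541 FPKM under DMSO, APO and VER in C4-2B MDVR and 426, 221 and 329 FPKM in CWR22Rv1. APO was the highest library of the first line and the lowest of the second.

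Core and F1 subunits were then set beside all tested genes. The 18 genes in question are the 7 nuclear core subunits of complex I, the 4 of complex II, CYC1, UQCRFS1 and the 5 of F1. With VER, 0 were higher and 11 lower in C4-2B MDVR (61.1%, median -0.30, against 34.9% of all tested genes and 32.1% of protein-coding genes averaging 50 FPKM or more), and 0 were higher and 10 lower in CWR22Rv1 (55.6%, median -0.31, against 32.3% and 26.5%). With APO, 2 were higher and 0 lower in C4-2B MDVR (median 0.00, against 37.7% and 35.4% of all tested genes), and 2 were higher and 4 lower in CWR22Rv1 (median -0.17, against 35.6% and 39.2%). Under the other scalings the VER counts were 11 lower in C4-2B MDVR and 9 to 10 in CWR22Rv1, while the lower count with APO ran from 0 to 6 in C4-2B MDVR and from 3 to 11 in CWR22Rv1. The summed level of the 18 genes was 3368, 3354 and 2729.96 FPKM with DMSO, APO and VER in C4-2B MDVR, and 3859, 3516 and 2906 FPKM in CWR22Rv1.

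Members that passed 1.2-fold in both lines were counted for each inhibitor, since those comparisons share no library. Of the 18059 genes tested in both lines, 21.3% were higher and 21.6% lower in both with APO, and 17.9% were higher and 18.2% lower in both with VER. Of the 83 members tested in both, 8.43% were higher and 8.43% lower in both with APO, and 7.23% were higher and 14.5% lower in both with VER, all under those shares. With VER, 12 were lower in both, out of 25 and 27 lower in each line, and core or F1 genes among them were SDHB, UQCRFS1, ATP5F1A and ATP5F1B. The other genes included NDUFAB1, NDUFS6, UQCRC1, ATP5MC3, ATP5MF, ATP5PB and ATP5MF-PTCD1. With VER, 6 were higher in both, out of 10 and 10: COX7A2L, NDUFA11, NDUFB9, NDUFS4, COX6A1 and COX7A2. With APO, 7 were higher in both, out of 32 and 10: COX7A2L, NDUFS4, NDUFA11, NDUFB9, NDUFA13, NDUFA12 and NDUFB5. With APO, 7 were lower in both, out of 7 and 31: ATP5MC1, ATP5MC3, ATP5MF, NDUFB3, NDUFB4 and the 2 readthrough genes. Calls of single members were traced through 2 other pseudocounts and the 3 other scalings. Of the VER calls, 10 of 10 higher and 24 of 25 lower members kept their call throughout in C4-2B MDVR, and 7 of 10 and 24 of 27 in CWR22Rv1. Of the APO calls, 19 of 32 and 7 of 7 kept it in C4-2B MDVR, and 5 of 10 and 27 of 31 in CWR22Rv1. Those lost in the both-line lists were NDUFB5, NDUFA12 and NDUFA13 with APO, NDUFAB1, NDUFS4 and COX7A2 with VER, and ATP5MF-PTCD1 with APO, each in 1 line or both.

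The inhibitors, both given at 10 µM for 48 h, were also compared directly. VER levels were below APO levels for 78 of 84 members in C4-2B MDVR, with a median log2 ratio of VER to APO of -0.25 against -0.02 for all genes tested. Under the TPM scaling 61 were below, with a median of -0.11 against 0.09. In CWR22Rv1, 36 of 83 were below and 47 above, with a median of 0.05 against 0.00, and under the TPM scaling 53 were below, with a median of -0.13 against -0.13. The share of all tested genes below APO was not counted, so only the medians have a background beside them. For single members, VER was below APO in both lines for SDHB (-0.72 and -0.65), and above it in both for NDUFB3 (0.44 and 1.19).

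The lines themselves differed under DMSO. CWR22Rv1 was higher than C4-2B MDVR for 38 of 84 members (45.2% against 43.2% of all genes tested) and lower for 17 (20.2% against 39.2%), with a median of 0.15 against 0.05. Equal sums outside the mitochondrial chromosome gave 43 higher and 10 lower (47.2% and 35.4% of all genes tested). Complex IV had the highest median, 0.62 (10 of 14 higher, 71.4% against 43.2%, and 2 lower, 14.3% against 39.2%), and complex III the lowest, -0.17. COX7A2 was among the genes with the largest gap, at 428 FPKM in CWR22Rv1 and 163 in C4-2B MDVR (1.39), as was ATP5MF (1.10). NDUFS5, an accessory subunit of complex I, was at 494, 498 and 469 FPKM under DMSO, APO and VER in C4-2B MDVR and 272, 171 and 268 FPKM in CWR22Rv1 (-0.86). These differences use the DMSO libraries that also serve the inhibitor comparisons of each line.

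Subunits encoded on the mitochondrial chromosome were set beside the nuclear-encoded ones. With APO in CWR22Rv1 all 13 were lower (100% against 39.2% of all tested genes), with a median of -1.43. Nuclear-encoded complex IV members had a median of -0.40 and complex I members of -0.07. MT-CO1, the catalytic subunit of complex IV, went from 18709.5 FPKM under DMSO to 4444 under APO in CWR22Rv1, and was at 23187 under VER. The ratio of the median mitochondrially encoded to the median nuclear-encoded level within complex IV was 60.3, 20.2 and 76.5 there. In C4-2B MDVR it was 29.02, 26.3 and 34.0. In complex I the ratio was 41.3, 18.2 and 52.5 in CWR22Rv1 and 26.1, 25.7 and 30.4 in C4-2B MDVR. In C4-2B MDVR, 7 of the 13 were higher with APO (53.8% against 37.7% of all tested genes), but 2 under TPM and 2 with equal sums outside the mitochondrial chromosome. There 1 was lower with APO (7.69% against 35.4%), and 5 were higher (38.5% against 35.6%) and 1 lower (7.69% against 34.9%) with VER. In CWR22Rv1, 4 were higher (30.8% against 32.1%) and 2 lower (15.4% against 32.3%) with VER. Of the FPKM in CWR22Rv1, the mitochondrial chromosome held 25.7%, 10.4% and 25.7% under DMSO, APO and VER. Nuclear-encoded members counted as lower there were 31 with APO and 27 with VER (37.3% and 32.5%, against 39.2% and 32.3%). The part of the mitochondrial share in these counts was not tested beyond the scaling values shown.

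**Figure D5:**
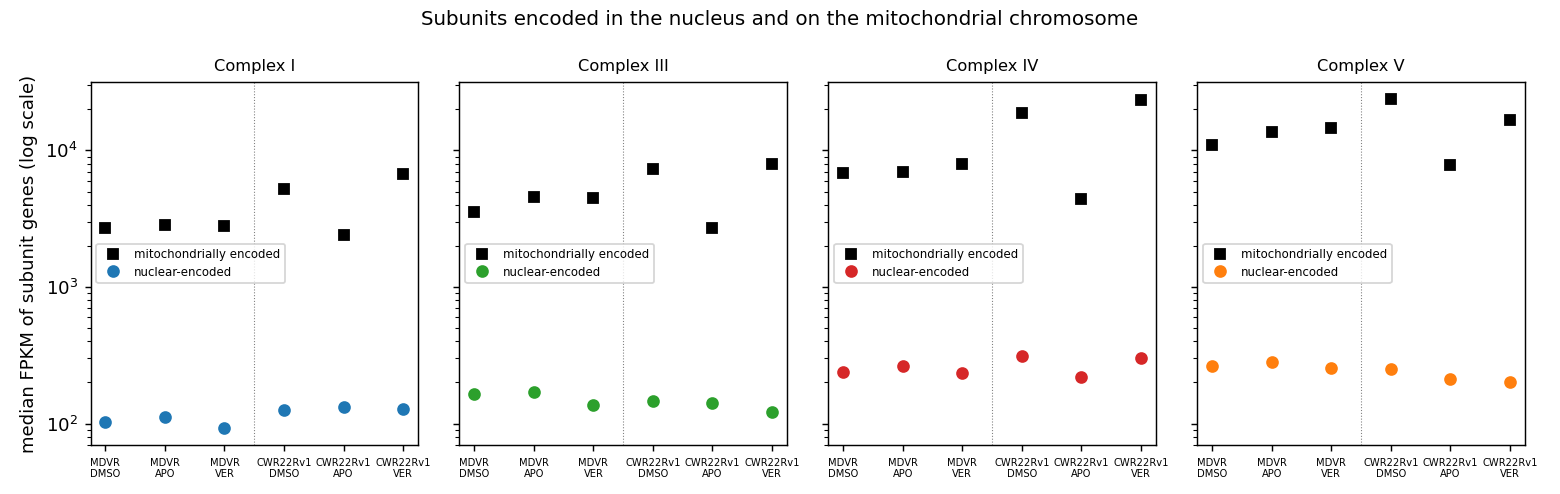
Median FPKM (vertical axis, log scale) of mitochondrially encoded (squares) and nuclear-encoded (circles) subunit genes of complexes I, III, IV and V in the 6 libraries (horizontal axis), with C4-2B MDVR left and CWR22Rv1 right of the dotted line. In complex IV of CWR22Rv1 the squares drop from 18709.5 FPKM with DMSO to 4444 with APO, and the circles go from 310.3 to 219.8.

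Genes known to regulate respiratory chain expression were read from a separate list of 18. With APO, 2 were higher and 11 lower in C4-2B MDVR (11.1% and 61.1%, against 37.7% and 35.4% of all tested genes). In CWR22Rv1, 6 were higher and 6 lower (33.3% each, near the 35.6% and 39.2% of all tested genes), and 9 were lower with equal sums outside the mitochondrial chromosome. With VER, 1 was higher and 11 lower in C4-2B MDVR (5.56% and 61.1%, against 35.6% and 34.9%), and 2 were higher and 7 lower in CWR22Rv1 (11.1% and 38.9%, against 32.1% and 32.3%). NRF1, the factor whose motif is marked above, was at 7.74, 11.7 and 8.77 FPKM under DMSO, APO and VER in C4-2B MDVR and 8.98, 16.9 and 8.88 FPKM in CWR22Rv1, higher with APO in both lines. GABPA, the ETS factor, was at 10.2, 8.07 and 7.93 FPKM under DMSO, APO and VER in C4-2B MDVR and 16.4, 18.7 and 16.03 FPKM in CWR22Rv1. TFAM, which packages mitochondrial DNA and starts its transcription, was at 29.6, 22.95 and 15.03 FPKM under DMSO, APO and VER in C4-2B MDVR and 19.4, 17.1 and 16.97 FPKM in CWR22Rv1, lowest with VER in each line. The PGC-1-related coactivator PPRC1 was lower in all 4 comparisons, between -1.08 and -0.64. PPARGC1B, the coactivator PGC-1beta, was at 3.81, 1.09 and 2.15 FPKM under DMSO, APO and VER in C4-2B MDVR and 4.40, 1.98 and 2.49 FPKM in CWR22Rv1, with DMSO highest in each. PPARGC1A was at 0.0394 to 1.98 FPKM, and ESRRA, a nuclear receptor of these genes, at 57.1 to 91.8 FPKM in C4-2B MDVR and 57.7 to 67.8 FPKM in CWR22Rv1.

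The promoter motifs were also counted by response, for members only. The same split was not made over all tested genes, so these counts have no background beside them. A link between a motif and a response was not tested. Of the members with a promoter entry, 11 of the 19 lower with VER in C4-2B MDVR held a YY1 match, against 3 of the 8 higher and 8 of the 40 under 1.2-fold. In CWR22Rv1 the counts were 9 of 20 lower, 2 of 7 higher and 11 of 39 under 1.2-fold. With APO the order differed: 0 of the 4 lower, 8 of the 26 higher and 14 of the 37 under 1.2-fold held one in C4-2B MDVR, and 5 of the 22 lower, 2 of the 7 higher and 15 of the 37 under 1.2-fold in CWR22Rv1. NRF1 matches were in 6 of the 19 lower and 1 of the 8 higher with VER in C4-2B MDVR, and in 5 of 20 and 1 of 7 in CWR22Rv1. With APO they were in 1 of the 4 lower and 4 of the 26 higher, and in 5 of 22 and 2 of 7.

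Cytochrome c and the cycle that feeds the chain were also read. CYCS, cytochrome c, was at 184, 124 and 122 FPKM under DMSO, APO and VER in C4-2B MDVR and 184, 161 and 133 FPKM in CWR22Rv1, below DMSO with both inhibitors. Of 18 citric acid cycle and pyruvate dehydrogenase genes, 1 was higher and 11 lower with VER in C4-2B MDVR (5.56% and 61.1%, against 35.6% and 34.9% of all tested genes). In CWR22Rv1, 0 were higher and 13 lower (72.2% lower, against 32.1% and 32.3%), and the median was -0.37 in both lines. With APO, 4 were higher and 8 lower in C4-2B MDVR (22.2% and 44.4%, against 37.7% and 35.4%), which became 1 and 10 under TPM. In CWR22Rv1, 3 were higher and 9 lower (16.7% and 50%, against 35.6% and 39.2%), and 6 were lower under TPM. FH, fumarase, which acts next after complex II, was at 123, 98.7 and 75.6 FPKM under DMSO, APO and VER in C4-2B MDVR and 148, 103 and 84.2 FPKM in CWR22Rv1. CS, citrate synthase, was at 234, 151 and 159 FPKM under DMSO, APO and VER in C4-2B MDVR and 233, 172 and 159 FPKM in CWR22Rv1. Both genes were lower in all 4 comparisons.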

How the data were processed

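The authors deposited 1 table per library of FPKM values for 60658 Ensembl genes. The submitters' processing notes name HISAT, Cufflinks, Cuffnorm and GRCh38, and their versions are not given in the sources used here. Cuffnorm scaled the FPKM values between libraries. Labels describe a stranded poly-A kit with strand marking and paired-end reads. FPKM keeps no read totals, so no count test, counting interval or smallest detectable value was possible. Symbols and coordinates came from GENCODE 29, which matched 57047 identifiers.

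Log2 fold changes of FPKM + 0.1 were computed for genes above 0.1 FPKM in at least 1 library compared, in Python 3.11.15 with pandas 2.3.3 and numpy 2.4.6, after a test on simulated data. A call meant past 1.2-fold. Named genes were the core subunits, COX4, COX5, UQCRC and isoform families, and the 3 members highest and lowest in each comparison. Beyond this rule, further members were named after their values were seen. Members and lists were chosen with earlier results of these data known. Transcripts were compared in words of 150 bases: 22 of 90 members share any word with another gene, and 8 share over 20%. On the same strand, 20 members overlap another protein-coding gene. Alternatives were other pseudocounts, filters, scalings and folds. Certain genes are not reported here by name.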

Additional observations from a re-analysis of the deposited data

Results flagged for a closer look

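With APO, 10 members passed 1.2-fold in opposite directions in the 2 lines, all of them higher in C4-2B MDVR and lower in CWR22Rv1. The share of all tested genes that passed in opposite directions was not counted. The APO library had the highest FPKM sum of all libraries in C4-2B MDVR and the lowest in CWR22Rv1. The part of these sums in the count was not tested beyond the scaling values below. The difference between lines, CWR22Rv1 minus C4-2B MDVR on the log2 scale, was -2.08 for NDUFA4L2, -1.31 for COX7A2, -1.26 for ATP5MD, -1.06 for NDUFA2, -1.003 for ATP5PD, -0.99 for COX8A, -0.96 for COX6C, -0.88 for NDUFB6, -0.79 for NDUFC2 and -0.62 for NDUFB2. For the complex IV median it was -0.84. With VER, NDUFA4L2 alone passed 1.2-fold in opposite directions, with a difference of -2.10. Each line has 1 library per condition, so none of these differences was tested. Under the TPM scaling and the scaling outside the mitochondrial chromosome, ATP5MD, COX8A, NDUFA2, NDUFB2, NDUFB6 and NDUFC2 no longer passed 1.2-fold in C4-2B MDVR, at values between 0.16 for ATP5MD and 0.23 for COX8A.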

How the results depend on the processing

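No paired analysis was possible because each condition has 1 library and the labels give no replicate numbers. Of 400 values under alternatives, 330 moved by no more than 0.1 in a median or 1.5 times in a count, and 70 moved further. Some of the 330 could not move. A protein-coding background leaves the members' counts as they are. Counting NDUFA4 and NDUFA4L2 with complex I leaves the medians of complexes II, III and V as they are. For APO in C4-2B MDVR, the TPM scaling gave 19 members higher, 15 lower and a median of -0.0042, and equal sums outside the mitochondrial chromosome gave 19, 16 and -0.017. For APO in CWR22Rv1, TPM gave 17 higher and a median of -0.055, and equal sums outside the mitochondrial chromosome gave 5 higher and -0.33. For CWR22Rv1 against C4-2B MDVR, the latter gave 10 lower and a median of 0.27, and a median ratio of 1 gave 11 lower and 0.25. Past 1.5-fold, counts of higher and lower members were 8 and 1 for APO and 2 and 5 for VER in C4-2B MDVR, 2 and 17 for APO and 2 and 6 for VER in CWR22Rv1, and 20 and 5 between lines. Of all tested genes, 25.2% and 23.1%, 23.7% and 22.4%, 23.8% and 27.5%, 19.1% and 17.5%, and 35.03% and 29.2% were past 1.5-fold in the same order. Past 2-fold the members' counts were 2 and 1, 2 and 1, 1 and 2, 0 and 0, and 6 and 2, and the shares of all tested genes 15.4% and 13.3%, 14.4% and 13.3%, 13.8% and 16.8%, 10.8% and 8.92%, and 27.2% and 19.4%. Without members that overlap a gene on the same strand, an alternative chosen after seeing the data, 4 were lower with APO in C4-2B MDVR. Depth is unknown beyond its ratio between libraries, so low members such as UQCRHL and NDUFA4L2 carry the least certain values.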

Other observations

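Genes of the ribosomes that make subunits of the chain were also read. Of 78 mitochondrial ribosomal protein genes, which serve the translation of the 13 mitochondrially encoded subunits, 2 were higher and 47 lower with VER in C4-2B MDVR (2.56% and 60.3%, against 35.6% and 34.9% of all tested genes, with a median of -0.33). In CWR22Rv1, 5 were higher and 23 lower with VER (6.41% and 29.5%, against 32.1% and 32.3%, with a median of -0.13), or 2 and 28 under TPM. With APO, 11 were higher and 25 lower in C4-2B MDVR (14.1% and 32.1%, against 37.7% and 35.4%), which became 7 and 37 under TPM and 6 and 39 with equal sums outside the mitochondrial chromosome. In CWR22Rv1, 31 were higher and 12 lower with APO (39.7% and 15.4%, against 35.6% and 39.2%), but 19 and 21 with equal sums outside the mitochondrial chromosome, where the median went from 0.13 to -0.03. Of 82 tested cytosolic ribosomal protein genes, 73 were higher and 1 lower with APO in each line (89.02% higher, against 37.7% and 35.6%), and over the 3 other scalings 49 to 72 and 62 to 76 were higher. With VER, 16 were higher and 2 lower in C4-2B MDVR (19.5% and 2.44%, against 35.6% and 34.9%) and 41 higher and 2 lower in CWR22Rv1 (50% and 2.44%, against 32.1% and 32.3%).

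Of 49 assembly factors, 13 were higher and 12 lower with APO in C4-2B MDVR (26.5% and 24.5%, against 37.7% and 35.4%), or 8 and 22 under TPM, and 8 and 17 with VER (16.3% and 34.7%, against 35.6% and 34.9%). In CWR22Rv1, 14 were higher and 13 lower with APO (28.6% and 26.5%, against 35.6% and 39.2%), or 10 and 20 with equal sums outside the mitochondrial chromosome, and 13 and 20 with VER (26.5% and 40.8%, against 32.1% and 32.3%). Between lines, UQCC1, an assembly factor of complex III, was higher in CWR22Rv1 (2.76), and COX10, which makes heme for complex IV, was lower (-1.34). Among 15 coenzyme Q and electron carrier genes, PDSS1, which builds the tail of coenzyme Q, was at 19.3, 7.64 and 6.32 FPKM under DMSO, APO and VER in C4-2B MDVR and 13.5, 6.29 and 8.68 FPKM in CWR22Rv1, below DMSO with both inhibitors. COQ8A was lower with APO alone, at 38.4, 12.5 and 39.2 FPKM under DMSO, APO and VER in C4-2B MDVR and 24.4, 11.6 and 25.4 FPKM in CWR22Rv1. COQ5, a methyltransferase of the same pathway, was higher with APO (0.62 and 1.04). Of 10 partners of ATP synthase, 3 were higher and 4 lower with APO in C4-2B MDVR (30% and 40%, against 37.7% and 35.4%). With VER there, 2 were higher and 5 lower (20% and 50%, against 35.6% and 34.9%). In CWR22Rv1, 2 were higher and 3 lower with APO (20% and 30%, against 35.6% and 39.2%). With VER, 1 was higher and 3 lower (10% and 30%, against 32.1% and 32.3%). Among them, the inhibitor ATP5IF1 was at 206, 307 and 303 FPKM under DMSO, APO and VER in C4-2B MDVR. It was at 257, 351 and 282 FPKM in CWR22Rv1, so that DMSO was the lowest library of each line.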
